A study of Mus musculus with 9 samples.

Results

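The genes described are the axon guidance families as measured in mouse cardiac endothelium: semaphorins and plexins, ephrins and Eph receptors, Slits and Robos, and netrins and their Unc5 receptors. They were taken by gene symbol alone, as every row of the deposited table whose symbol starts with Sema and a digit, Plxn, Epha or Ephb and a digit, Efna, Efnb, Slit or Robo and a digit, Unc5, or Ntn and a digit. This gave 66 of 18094 rows: 20 semaphorins, 9 plexins, 8 ephrins, 11 Eph receptors, 3 Slits, 4 Robo receptors, 3 netrins and 4 Unc5 receptors. The remaining 4 rows carry a matching symbol without being a ligand or receptor of these families. They are Unc50 and Unc5cl, and Plxna4os1 and Plxna4os2, which are transcripts from the strand opposite Plxna4. Of the 66 rows, 59 had enough counts to be tested. The 7 others (Epha3, Epha5, Sema3e, Slit1, Unc5d, Unc5cl and Plxna4os2) reached at most 57 counts over all 9 libraries together. Epha3 and Unc5d had libraries with 0 counts, which allows a level of up to 0.0911 to 0.104 CPM (3 counts per library, counting error only).

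Guidance proteins were first known for steering growing axons, and blood vessels use the same families to place and pattern their cells. Semaphorins signal through plexins, often together with neuropilins as co-receptors, and commonly cause cells to retract. Ephrins and Eph receptors both sit in membranes and signal at contacts between cells, with ephrin-B2 a classical label of arteries and EphB4 of veins. Slits bind Robo receptors, netrins bind Unc5 and DCC-type receptors, and Robo4 and Unc5b are the members of their families best known from endothelium.

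Read counts came from endothelial cells captured with antibody-coated microbeads from fresh mouse hearts and sequenced as polyA RNA. The 3 groups, with 3 libraries each, were the hypertensive inbred line BPH/2J at 4 weeks, BPH/2J at 22 weeks, and the normotensive line BPN/3J at 22 weeks; no group carried a treatment or transgene. The labels name no BPN/3J group at 4 weeks, so the comparison of 4-week BPH/2J with BPN/3J changes line and age together, and each blood pressure state is a single inbred line. Nothing in the labels says that replicates are separate animals, so a p-value speaks of library-to-library spread only, some or all of which could be technical.

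Libraries held 28806840 to 32913813 counts. All 8 defining endothelial markers checked, among them Pecam1, Cdh5 and Kdr, were detected, with a summed level of 10560 to 11080 CPM in BPN/3J, 11750 to 12620 in 4-week BPH/2J and 12890 to 13220 in 22-week BPH/2J. Markers of other cell types were present at lower summed levels. The 10 pericyte and smooth muscle markers had the highest of these sums, 1221 to 1401 CPM in BPN/3J, 1510 to 1877 in 4-week and 1460 to 1752 in 22-week BPH/2J, so that every BPH/2J library lay above every BPN/3J library, as for Sema3a and Unc5b. Of these 10 genes, 1 was called higher and 0 lower in BPH/2J than in BPN/3J at 22 weeks. The gene called was Rgs5, at 776 ± 69.2 CPM in 22-week BPH/2J against 470 ± 50.4 in BPN/3J. The 14 cardiomyocyte markers summed to 856 to 1080 CPM in BPN/3J, 397 to 647 in 4-week and 527 to 643 in 22-week BPH/2J. The 11 macrophage and monocyte markers in the table summed to 382 to 656, 436 to 838 and 224 to 261 CPM in the same order of groups. Fibroblast markers (11) summed to 588 to 663, 559 to 893 and 484 to 569 CPM, with replicate 1 of 4-week BPH/2J at 893 while replicates 2 and 3 had 577 and 559. Mitochondrial genes took 2.63% of its counts, against 1.19% and 1.33% in those replicates and 2.02% to 2.78% in BPN/3J. Endocardial markers (6) summed to 701 to 728 CPM in BPN/3J, 263 to 322 in 4-week BPH/2J and 400 to 660 in 22-week BPH/2J, where 4-week libraries were lowest without overlap. The 3 epicardial markers in the table summed to 120 to 131, 95.04 to 116 and 46.9 to 62.5 CPM in BPN/3J, 4-week and 22-week BPH/2J. Most of this epicardial sum was Wt1 alone, with group means of 121, 106 and 54.8 CPM in that order. Lymphocyte markers (8) summed to 46.4 to 52.6, 36.1 to 57.8 and 43.9 to 105 CPM. Schwann and nerve markers (7) stayed between 10.6 and 21.2 CPM, and lymphatic markers (6) between 248 and 412 CPM. No marker list was without counts, and the part of any of these cells in the values below was not tested. In cell mixtures such as these, fewer cells of a type and less RNA per cell cannot be told apart.

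Some guidance genes ranked among the most abundant transcripts of these cells per unit of length. Levels between genes are given as RPKM, scaled CPM divided by the deposited gene length in kilobases; all comparisons of 1 gene between groups are in CPM. Averaged over the 9 libraries, 19 rows exceeded 10 RPKM, 13 lay between 1 and 10, and 34 were below 1. Plxnd1, the plexin best known from endothelium, had the highest mean level, 213 RPKM, above 98.8% of all tested genes. Behind it came Sema7a, a lipid-anchored semaphorin, at 168 RPKM, Robo4 at 142, Ephb4 at 111, Efna1 at 94.3 and Efnb2 at 76.7. The median of the tested guidance genes was 1.33 RPKM, against 5.27 for all tested genes.

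The order at the top differed between groups. In BPN/3J, Sema7a led with 179 ± 3.26 RPKM (mean ± SD, n = 3), above Robo4 (154 ± 9.51) and Plxnd1 (145 ± 8.01), whose libraries overlapped each other but not those of Sema7a. Plxnd1 led in 4-week BPH/2J at 300 ± 21.9 RPKM, without overlap with Sema7a at 169 ± 13.6, while Sema7a overlapped Robo4 (141 ± 19.4) and Robo4 overlapped Ephb4 (120 ± 11.8), which lay above Sema3f without overlap. Plxnd1 also led in 22-week BPH/2J, at 193 ± 19.1 RPKM, followed without overlap by Sema7a (156 ± 11.3) and Robo4 (132 ± 5.10). Efna1 came next there at 117 ± 0.556 RPKM, overlapping Ephb4 at 116 ± 7.27.

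**Figure D1:**
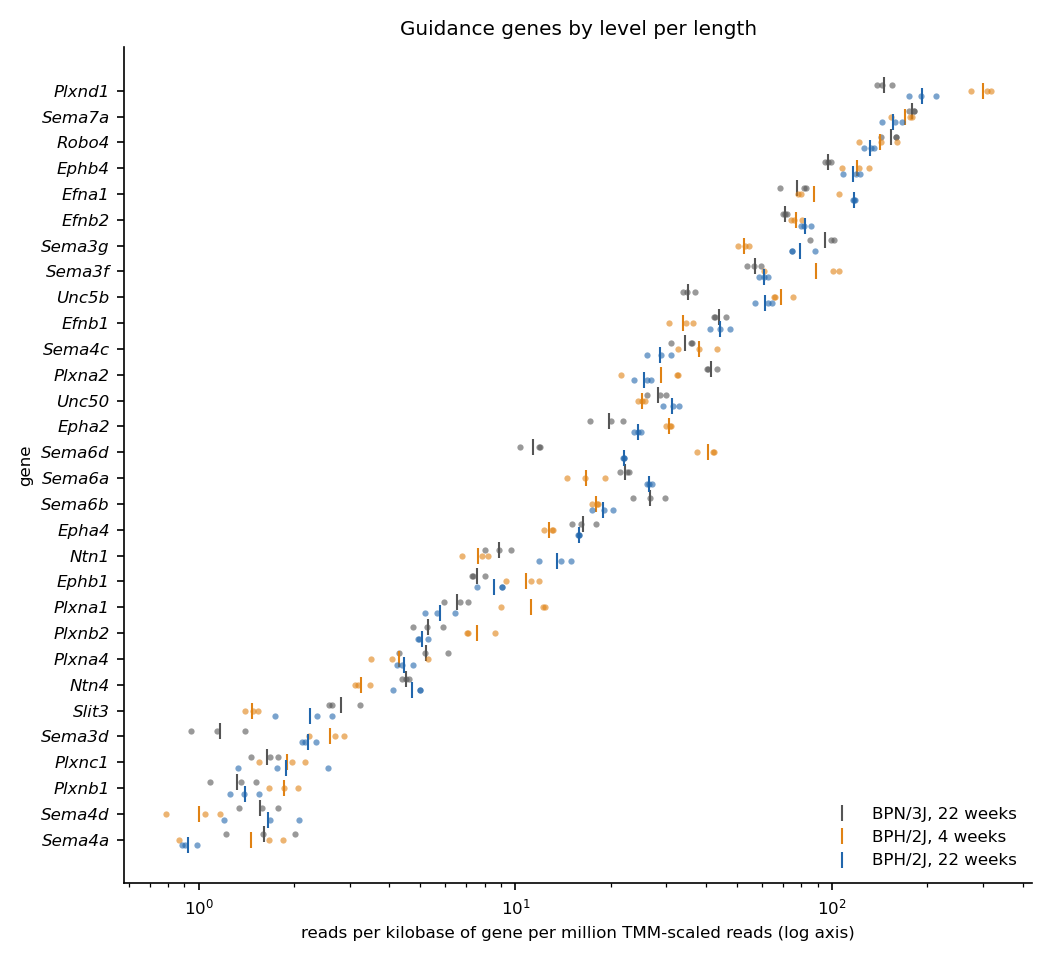
Level per unit of length (horizontal axis, RPKM, logarithmic) of the 30 guidance rows with the highest mean, 1 row per gene; dots are libraries and vertical ticks are group means of 3 libraries. The highest gene, Plxnd1, lies at 145 RPKM in BPN/3J, 300 in 4-week and 193 in 22-week BPH/2J.

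Promoter windows of 5 genes are shown because the results turn on their differences: Plxnd1 and Robo1 for age, and Unc5b, Sema3a and Ntn3 for the line. Each window runs from 250 bases before to 50 bases after the transcription start that RefSeq gives on GRCm38.p6, which is a later build than the mm9 of the submitters' processing notes. RefSeq windows matched 55 of the 66 rows by symbol. The windows lie at chr6:115994956-115995255 on the minus strand (Plxnd1), chr16:72662899-72663198 on the plus strand (Robo1), chr10:60831532-60831831 on the minus strand (Unc5b), chr5:13396534-13396833 on the plus strand (Sema3a) and chr17:24209338-24209637 on the minus strand (Ntn3). They read 5′ to 3′ along each gene, and capitals mark matches to the motifs listed after them.
Plxnd1: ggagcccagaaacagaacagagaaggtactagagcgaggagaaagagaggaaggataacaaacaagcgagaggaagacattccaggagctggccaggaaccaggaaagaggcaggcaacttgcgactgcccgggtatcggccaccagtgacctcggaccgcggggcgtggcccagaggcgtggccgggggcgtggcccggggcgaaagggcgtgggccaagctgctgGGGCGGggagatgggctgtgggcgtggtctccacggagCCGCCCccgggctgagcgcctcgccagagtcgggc
Robo1: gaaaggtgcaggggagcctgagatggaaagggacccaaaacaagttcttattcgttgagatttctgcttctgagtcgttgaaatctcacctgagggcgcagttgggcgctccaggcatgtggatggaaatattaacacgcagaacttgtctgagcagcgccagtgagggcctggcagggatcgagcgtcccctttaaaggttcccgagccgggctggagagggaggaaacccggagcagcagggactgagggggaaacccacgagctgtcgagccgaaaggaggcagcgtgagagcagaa
Unc5b: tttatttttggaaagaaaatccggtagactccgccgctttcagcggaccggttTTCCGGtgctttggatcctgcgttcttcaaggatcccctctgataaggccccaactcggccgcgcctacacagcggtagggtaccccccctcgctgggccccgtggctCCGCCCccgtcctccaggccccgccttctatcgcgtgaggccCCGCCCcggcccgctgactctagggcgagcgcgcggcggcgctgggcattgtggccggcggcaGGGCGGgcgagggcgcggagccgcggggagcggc
Sema3a: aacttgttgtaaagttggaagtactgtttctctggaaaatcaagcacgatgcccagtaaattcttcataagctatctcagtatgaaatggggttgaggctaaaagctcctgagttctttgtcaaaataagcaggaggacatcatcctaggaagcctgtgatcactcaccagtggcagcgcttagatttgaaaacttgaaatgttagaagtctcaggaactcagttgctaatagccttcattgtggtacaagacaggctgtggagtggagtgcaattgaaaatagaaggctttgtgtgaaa
Ntn3: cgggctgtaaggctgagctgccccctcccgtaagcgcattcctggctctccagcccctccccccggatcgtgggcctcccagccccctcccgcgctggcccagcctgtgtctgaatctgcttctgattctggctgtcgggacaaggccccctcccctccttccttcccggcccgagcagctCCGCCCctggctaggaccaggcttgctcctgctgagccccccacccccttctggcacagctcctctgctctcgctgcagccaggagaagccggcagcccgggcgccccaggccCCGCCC
Searched on both strands were the TATA box TATAAA, the CCAAT box CCAAT, the GC box GGGCGG, an ETS core CCGGAA, a forkhead motif TGTTTAC and an E-box CACGTG, none of which contains another. The GC box occurred 2 times in the Plxnd1 window, 3 times in that of Unc5b and 2 times in that of Ntn3, and the Unc5b window also held 1 ETS core. The Robo1 and Sema3a windows held none of the 6 motifs. Among all 71 windows of the guidance genes (several genes have more than 1 start), 70.4% held a GC box, against 35.7% of all 32851 windows in the RefSeq table. TATA boxes occurred in 2.82% against 13.6%, CCAAT boxes in 26.8% against 37.4%, ETS cores in 11.3% against 14.9%, E-boxes in 5.63% against 7.15%, and forkhead motifs in 0% against 3.65%. Guidance windows had a median GC content of 64.3% against 52.7% over all windows, and a median of 19 CG dinucleotides against 7. The 5 shown differ in this too, from 41.3% GC and 2 CG dinucleotides for Sema3a to 69.7% and 36 for Unc5b. A match is a run of letters and says nothing about binding.

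Between the lines at 22 weeks, the comparison of hypertensive with normotensive endothelium at equal age, 16 of the 59 tested rows were higher in BPH/2J and 9 were lower, and 34 were not called. Called means an adjusted p of at most 0.05 in the edgeR quasi-likelihood test over all 15277 tested genes. The called share, 42.4%, lies near the 38.0% of all tested genes (19.8% higher, 18.2% lower). The largest differences in genes above 5 CPM were those of Sema3a, Robo2, Sema6d, Sema3d and Unc5b, each higher in BPH/2J. Here and for age, the limit of 5 CPM was put on whichever group was highest for the gene. Robo2 passed it only in 22-week BPH/2J, with 7.36 CPM against 3.22 in BPN/3J and 3.59 in 4-week BPH/2J. The median log2 difference was 0.08, against 0.02 over all tested genes, and the median size was 0.33 against 0.26. Of the 59, 7 were called with a 2-fold difference or more, beside 8.85% of all tested genes, and 29 had groups that did not overlap (49.2%, against 55.7%). Ligands had 11 higher and 6 lower of 32 tested, and receptors 5 higher and 3 lower of 25.

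With age in BPH/2J, from 4 to 22 weeks, 15 of 59 rows rose and 11 fell, and 33 were not called. That is 44.1% called, beside 41.0% of all tested genes (19.9% higher, 21.1% lower). Robo1 fell most and Robo2 rose most of the genes above 5 CPM in their highest group. Each passed that limit in 1 group only. For Robo1 this was 4-week BPH/2J, with 9.86 CPM against 1.42 in BPN/3J and 1.66 in 22-week BPH/2J. For Robo2 it was 22-week BPH/2J. Every called plexin fell, 4 of 9 tested, and the netrins, ephrins and Slits had called rises and no called fall, with 2 of 3, 2 of 8 and 1 of 2 tested. The median log2 change was -0.11, against 0.01 over all tested genes, and the median size was 0.40 against 0.28. Called changes of 2-fold or more numbered 3 of 59 rows, beside 8.42% of all tested genes. No overlap was seen in 29 rows (49.2%, against 51.2%). Ligands had 10 rises and 3 falls of 32 tested, receptors 4 rises and 8 falls of 25; whether this split differs between ligands and receptors was not tested.

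Comparing 4-week BPH/2J with 22-week BPN/3J, where line and age both differ, 19 rows were higher in BPH/2J and 12 lower (52.5%, against 53.1% of all tested genes, 27.8% higher and 25.3% lower). Among the 59 rows, 10 were called at 2-fold or more, beside 14.5% of all tested genes, and 34 rows had no overlap between the groups (57.6%, against 59.2%). The 3 comparisons share libraries, so their results are set side by side and not counted as separate support. Leaving out replicate 1 of 4-week BPH/2J gave 28 called rows between the lines, 29 with age and 34 in the third comparison, against 25, 26 and 31 with it. By the authors' deposited table, 25, 29 and 35 of the 66 rows pass a false discovery rate of 0.05 in these comparisons, of which 24, 26 and 31 were called here in the same direction and 0 in the opposite.

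**Figure D2:**
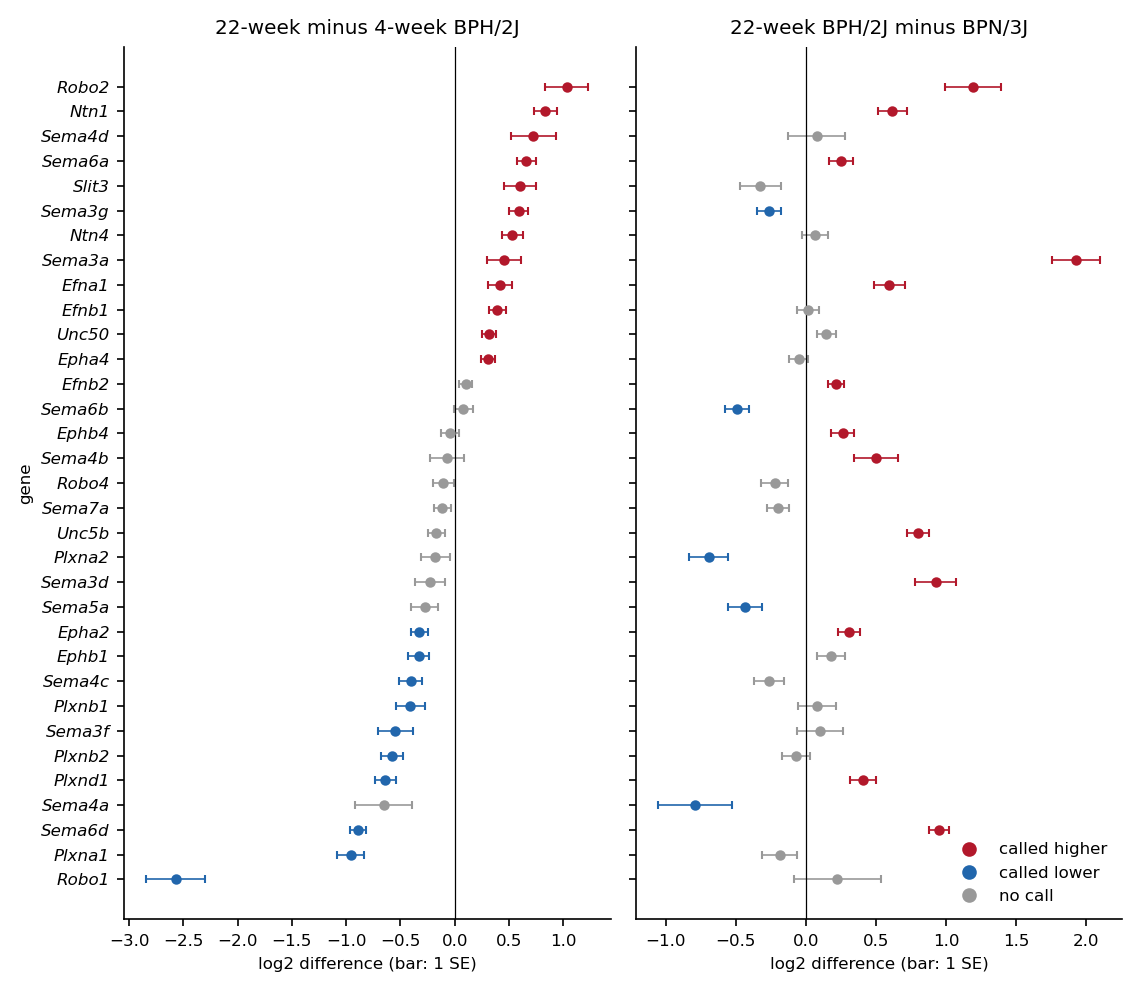
Log2 differences (dots, with bars of 1 SE) of the 33 genes whose library values are given, for 22-week against 4-week BPH/2J on the left and 22-week BPH/2J against BPN/3J on the right; colour shows the call. Robo1 stands at -2.57 with age, and Sema3a at 1.93 between the lines; both panels contain the same 22-week BPH/2J libraries.

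Semaphorins, the ligands of plexins, differed in both directions. Sema6d, a transmembrane semaphorin that acts through Plxna1 in heart morphogenesis, read 126, 109 and 125 CPM in BPN/3J, 395, 444 and 448 in 4-week BPH/2J and 233, 233 and 230 in 22-week BPH/2J (replicates 1 to 3, as in all such lists). The 3 groups were fully apart, with BPN/3J lowest and the young hypertensive line highest. Sema6d fell with age by 0.89 ± 0.07 on the log2 scale (SE; adjusted p = 2.2e-05) and was higher in BPH/2J than in BPN/3J at 22 weeks by 0.95 ± 0.07 (adjusted p = 8.29e-06). Its 3.58-fold difference between 4-week BPH/2J and BPN/3J had the smallest adjusted p of any guidance gene, 5.66e-08.

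Sema3a, a secreted repellent that binds neuropilin-1, read 4.32, 5.11 and 6.11 CPM in BPN/3J, 17.6, 12.0 and 13.5 in 4-week BPH/2J and 17.4, 22.2 and 19.5 in 22-week BPH/2J. Every BPH/2J library of either age lay above every BPN/3J library. At 22 weeks it was 3.81-fold higher in BPH/2J (log2 1.93 ± 0.17, adjusted p = 1.9e-05). Its rise with age, 0.46 ± 0.16 (adjusted p = 0.0401), came with overlapping groups and lost its call without BPN/3J replicate 2, without 4-week replicate 2 or 3, or without 22-week BPH/2J replicate 2 or 3 (adjusted p = 0.0567 to 0.137).

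Sema3d, another secreted class 3 semaphorin, followed the line rather than the age. It read 6.55, 7.92 and 9.72 CPM in BPN/3J, 15.4, 19.9 and 18.6 in 4-week and 14.9, 16.2 and 14.7 in 22-week BPH/2J. The line difference at 22 weeks was 0.93 ± 0.14 (log2, adjusted p = 0.000732), and the age difference, -0.23 ± 0.14, was not called (adjusted p = 0.207). Sema5b, at 2.32 ± 0.209 CPM in 22-week BPH/2J against 1.06 ± 0.218 in BPN/3J (adjusted p = 0.00197), was higher in the hypertensive line too, as was Sema4f at 0.796 ± 0.105 against 0.310 ± 0.118 CPM (adjusted p = 0.00818). Sema4f also rose with age, from 0.437 ± 0.0998 CPM at 4 weeks (adjusted p = 0.0413). The age call was lost without BPN/3J replicate 1, 4-week replicate 1 or 3, or any 22-week BPH/2J library (adjusted p = 0.0527 to 0.136).

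Sema3g, a secreted semaphorin of arterial endothelium, rose with age in BPH/2J and was lower in it than in BPN/3J. Its libraries read 387, 460 and 452 CPM in BPN/3J, 249, 228 and 241 in 4-week BPH/2J and 340, 340 and 401 in 22-week BPH/2J. The rise with age was 0.59 ± 0.09 on the log2 scale (adjusted p = 0.000551) with no overlap. The line difference at 22 weeks, -0.26 ± 0.09 (adjusted p = 0.0374), came with an overlap of the groups. That call was lost without BPN/3J replicate 2 or 3, without 4-week replicate 3, or without 22-week BPH/2J replicate 1 or 2 (adjusted p = 0.0548 to 0.133). Of 8 arterial markers, which include Sema3g and Efnb2, 4 rose with age and 0 fell. Sema3g is itself among these 4, and Efnb2 was not called with age.

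Sema6a, a transmembrane ligand of Plxna2 and Plxna4, read 187, 197 and 200 CPM in BPN/3J, 168, 145 and 128 in 4-week BPH/2J and 228, 231 and 237 in 22-week BPH/2J. It rose 1.58-fold with age (adjusted p = 0.000247). Its line difference at 22 weeks was 0.25 ± 0.09 (adjusted p = 0.0417), and this call was lost without any of the 6 libraries of the 22-week groups or without 4-week replicate 2 (adjusted p = 0.0509 to 0.118). Sema6b, its relative, went the other way between the lines. It read 93.5, 106 and 118 CPM in BPN/3J, 69.3, 72.2 and 72.2 in 4-week and 69.5, 80.6 and 75.6 in 22-week BPH/2J, and was lower in BPH/2J at 22 weeks by 0.49 ± 0.09 on the log2 scale (adjusted p = 0.0014). The age difference of Sema6b, 0.08 ± 0.09, was not called (adjusted p = 0.498).

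Sema3f, a secreted ligand of neuropilin-2, read 188, 198 and 209 CPM in BPN/3J, 213, 352 and 367 in 4-week BPH/2J and 205, 220 and 213 in 22-week BPH/2J. Replicate 1 of the 4-week group sat among the 22-week libraries, and replicates 2 and 3 far above them. The fall with age was 0.55 ± 0.16 on the log2 scale (adjusted p = 0.0208), and its call was lost without 4-week replicate 2 or 3 or without 22-week BPH/2J replicate 1 or 3 (adjusted p = 0.0601 to 0.0943).

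Class 4 semaphorins, to which Sema4f also belongs, are transmembrane ligands of B-type plexins among others. Sema4c read 142, 166 and 165 CPM in BPN/3J, 149, 198 and 174 in 4-week and 132, 142 and 120 in 22-week BPH/2J, and fell with age by 0.40 ± 0.11 on the log2 scale (adjusted p = 0.0121, and 0.0599 without 22-week BPH/2J replicate 3). Its line difference at 22 weeks, -0.26 ± 0.11 (adjusted p = 0.0763), was called without 4-week replicate 1 (adjusted p = 0.0278) or replicate 2 (adjusted p = 0.0488), and in a fit of the 22-week groups alone (adjusted p = 0.0243). Sema4d, the ligand of Plxnb1, read 8.61, 10.2 and 11.5 CPM in BPN/3J, 7.54, 6.72 and 5.07 in 4-week and 10.8, 7.72 and 13.4 in 22-week BPH/2J, and rose with age by 0.72 ± 0.21 (adjusted p = 0.0186). Without 4-week replicate 3 or 22-week BPH/2J replicate 3 its adjusted p was 0.0718 or 0.0772. Of 8 lymphocyte markers 3 rose with age and 0 fell, and their sum was highest, at 105 CPM, in that last library; their part in the rise of Sema4d was not tested. Sema4d and Sema4c thus moved in opposite directions with age, each by less than 2-fold.

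Sema4b was higher in BPH/2J at 22 weeks, with 4.66, 3.65 and 4.04 CPM in BPN/3J, 6.62, 5.27 and 6.42 in 4-week and 5.54, 5.15 and 6.77 in 22-week BPH/2J (log2 0.50 ± 0.16, adjusted p = 0.0298). Sema4a, known from immune cells and their contacts, was lower, with 10.9, 6.57 and 8.63 CPM in BPN/3J, 4.67, 9.03 and 9.98 in 4-week and 4.80, 5.34 and 4.90 in 22-week BPH/2J (log2 -0.79 ± 0.26, adjusted p = 0.0364). The 4-week replicate 1 of Sema4a stood apart from the others of its group, at 4.67 CPM, and without it a fall with age was called (log2 -0.92, adjusted p = 0.00202; 0.0701 with it). Sema5a, a semaphorin with thrombospondin repeats, was lower too, with 7.22, 8.69 and 9.09 CPM in BPN/3J, 6.82, 7.69 and 7.86 in 4-week and 6.49, 5.66 and 6.32 in 22-week BPH/2J (-0.44 ± 0.12, adjusted p = 0.0186). Each of these 3 calls was fragile: Sema4b lost it without BPN/3J replicate 2 or 3 or 22-week BPH/2J replicate 1 or 3 (adjusted p = 0.0506 to 0.112). Sema4a lost it without BPN/3J replicate 1 or 3 or any 22-week BPH/2J library (adjusted p = 0.0679 to 0.131), and Sema5a without BPN/3J replicate 2 or 3 or 22-week BPH/2J replicate 2 (adjusted p = 0.062 to 0.0688). Macrophage markers, of which 9 of 11 were lower in 22-week BPH/2J and 0 higher, moved in the direction of Sema4a; their part in it was not tested.

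Sema7a, the most abundant semaphorin per length, was not called in any comparison. It read 598, 579 and 596 CPM in BPN/3J, 507, 588 and 580 in 4-week and 474, 548 and 523 in 22-week BPH/2J, with an adjusted p of 0.0684 between the lines, where the groups did not overlap, and 0.261 with age. Without 4-week replicate 1 the line difference of Sema7a was called lower in BPH/2J (log2 -0.20, adjusted p = 0.0241), as it was by DESeq2 (adjusted p = 0.0315) and in a fit of the 22-week groups alone (adjusted p = 0.0316). The other tested semaphorins, Sema3b, Sema3c, Sema4g and Sema6c, averaged 0.664 to 2.54 CPM in the groups and were not called between the lines or with age. In the third comparison Sema3c was called, at 1.47 ± 0.483 CPM in 4-week BPH/2J against 0.774 ± 0.363 in BPN/3J with overlapping groups (adjusted p = 0.0428). That call was lost without BPN/3J replicate 1 or 2, 4-week replicate 3, or 22-week BPH/2J replicate 1 or 3 (adjusted p = 0.0553 to 0.188).

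**Figure D3:**
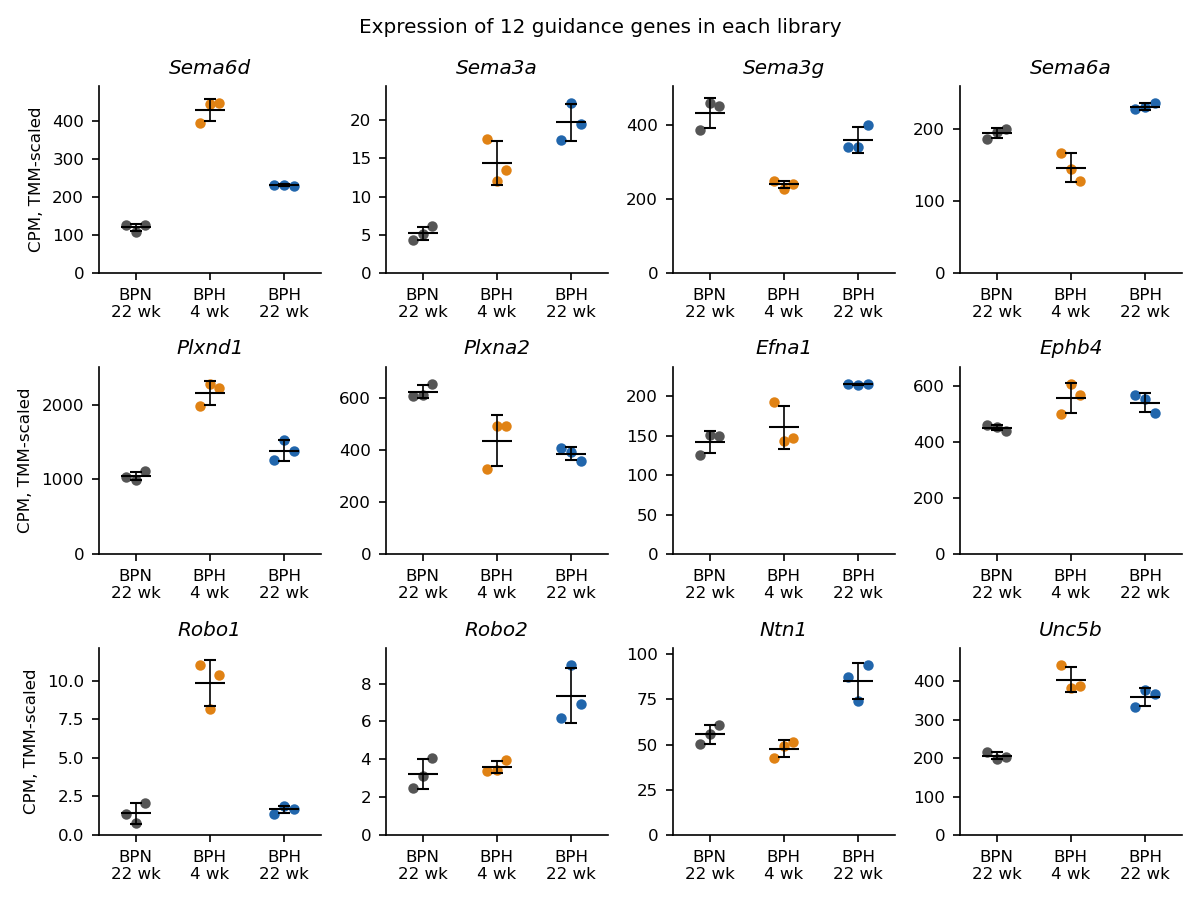
CPM of 12 guidance genes in each library (dots; vertical axes start at 0), with group means and SD as bars (n = 3). Sema6d and Plxnd1 are highest in 4-week BPH/2J, Robo1 is near 10 CPM there and at most 2.10 CPM in every other library, and Sema3a and Unc5b are lowest in BPN/3J.

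Plexins, the receptors of semaphorins, were highest at 4 weeks wherever age was called. Plxnd1, the receptor through which endothelial cells sense semaphorins such as Sema3e, read 1031, 997 and 1109 CPM in BPN/3J, 1983, 2281 and 2221 in 4-week BPH/2J and 1257, 1531 and 1377 in 22-week BPH/2J. The 3 groups did not overlap, in the same order as for Sema6d. Plxnd1 fell with age by 0.64 ± 0.09 on the log2 scale (adjusted p = 0.000488) and was higher in BPH/2J at 22 weeks by 0.41 ± 0.09 (adjusted p = 0.00674). Sema3e itself was not tested, with at most 0.389 CPM in a library.

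Plxna1, a receptor of Sema6d and, with neuropilins, of class 3 semaphorins, read 60.1, 53.8 and 63.7 CPM in BPN/3J, 81.4, 110 and 112 in 4-week and 51.1, 58.0 and 46.9 in 22-week BPH/2J. It fell 1.94-fold with age (adjusted p = 0.000215) and did not differ detectably between the lines at 22 weeks (-0.19 ± 0.12, adjusted p = 0.26). In the later GENCODE M21 annotation, 970 exon bases of Plxna1 are shared with an antisense transcript. Of the 65 guidance rows found there by identifier, 11 share over 50 exon bases with another gene. Sema4c shares 334, Plxnb1 257 and Ephb1 152 with transcripts of the opposite strand, and Sema4a 73 on its own strand. No source used here states whether the libraries kept strand, so reads of such pairs cannot be told apart.

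Plxnb2, a receptor of Sema4c, read 38.5, 34.8 and 43.4 CPM in BPN/3J, 51.3, 51.7 and 62.9 in 4-week and 36.4, 35.9 and 38.9 in 22-week BPH/2J, and fell by 0.58 ± 0.10 on the log2 scale with age (adjusted p = 0.00115). Plxnb1, the receptor of Sema4d, read 12.2, 9.73 and 13.6 CPM in BPN/3J, 16.6, 14.9 and 18.4 in 4-week and 13.9, 12.4 and 11.2 in 22-week BPH/2J, and fell by 0.41 ± 0.13 (adjusted p = 0.0315). The 4-week libraries of both genes lay above all others. The call on Plxnb1 was lost without 4-week replicate 3 or 22-week BPH/2J replicate 2 or 3 (adjusted p = 0.0764 to 0.125).

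Plxna2, a receptor of Sema6a and of neuropilin complexes, differed between the lines instead. It read 608, 610 and 653 CPM in BPN/3J, 325, 493 and 490 in 4-week and 405, 392 and 358 in 22-week BPH/2J, and was 1.62-fold lower in BPH/2J at 22 weeks (log2 -0.70 ± 0.14, adjusted p = 0.00292). Its age difference, -0.18 ± 0.14, was not called (adjusted p = 0.325), but without 4-week replicate 1, the lowest library, it was called at -0.35 (adjusted p = 0.00183). Plxna4 at 54.1 to 65.5 CPM and Plxnc1 at 11.5 to 13.3 CPM in the group means were not called in any comparison, and neither was Plxnb3; without 4-week replicate 2, Plxna4 was called lower in 4-week BPH/2J than in BPN/3J (log2 -0.45, adjusted p = 0.0186). Plxna3 was called only in the third comparison, at 2.83 ± 0.320 CPM in 4-week BPH/2J against 1.72 ± 0.306 in BPN/3J (adjusted p = 0.0106).

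The neuropilins, co-receptors of secreted semaphorins and of VEGF, moved apart with age. Nrp2 read 544, 547 and 576 CPM in BPN/3J, 1031, 1248 and 1209 in 4-week and 631, 808 and 663 in 22-week BPH/2J, and fell by 0.73 ± 0.10 on the log2 scale (adjusted p = 0.000414). Nrp1 read 1802, 1774 and 1713 CPM in BPN/3J, 1566, 1595 and 1607 in 4-week and 1986, 1904 and 1990 in 22-week BPH/2J, and rose by 0.30 ± 0.07 (adjusted p = 0.00547). Between the lines at 22 weeks Nrp2 was higher in BPH/2J by 0.33 ± 0.10 (adjusted p = 0.0283), and Nrp1 was not called (adjusted p = 0.101).

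**Figure D4:**
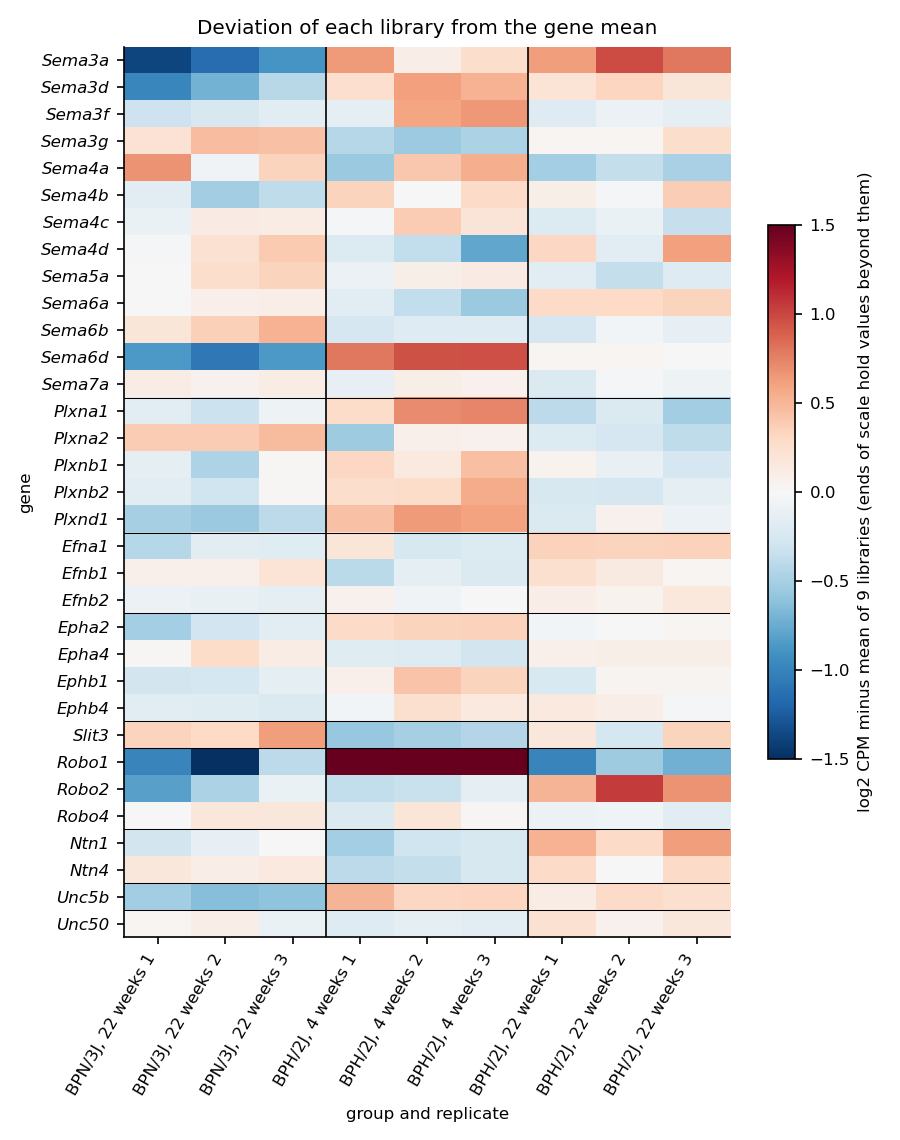
Deviation of log2 CPM in each library from the mean of the 9 libraries (colour) for 33 guidance rows, in families separated by thin lines and groups separated by thick lines. Robo1, 4 plexins (Plxna1, Plxnb1, Plxnb2 and Plxnd1) and Sema6d are above their mean in all 4-week libraries, and Sema3a, Sema3d and Unc5b are below it in all BPN/3J libraries.

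Among ephrins, the membrane-bound ligands of Eph receptors, 3 exceeded 100 CPM and the other 5 stayed near or below 3 CPM. Efna1, a ligand of EphA2, read 126, 151 and 150 CPM in BPN/3J, 192, 143 and 146 in 4-week and 215, 214 and 216 in 22-week BPH/2J. The 22-week BPH/2J libraries lay above all others and within 2 CPM of each other. Efna1 rose with age by 0.42 ± 0.11 on the log2 scale (adjusted p = 0.0119) and was higher in BPH/2J at 22 weeks by 0.60 ± 0.11 (adjusted p = 0.0021).

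Efnb2, the arterial ephrin, read 346, 340 and 334 CPM in BPN/3J, 384, 355 and 364 in 4-week and 392, 381 and 411 in 22-week BPH/2J. It was 1.16-fold higher in BPH/2J at 22 weeks (adjusted p = 0.0164, and 0.0646 without 22-week BPH/2J replicate 3), with no call for age (adjusted p = 0.193). Efnb1, another transmembrane ephrin, read 147, 147 and 160 CPM in BPN/3J, 105, 126 and 120 in 4-week and 164, 153 and 142 in 22-week BPH/2J, a rise of 0.39 ± 0.08 on the log2 scale (adjusted p = 0.00303). Its line difference at 22 weeks, 0.02 ± 0.08, was not called (adjusted p = 0.877). Efnb3 was lower in 22-week BPH/2J than in BPN/3J (log2 -1.32 ± 0.23), at 1.00 ± 0.0362 against 2.51 ± 0.376 CPM (adjusted p = 0.00134). Efna2, Efna3, Efna4 and Efna5 were not called in any comparison with all libraries. Efna5 was called higher with age without BPN/3J replicate 3 (adjusted p = 0.0496) or 4-week replicate 1 (adjusted p = 0.0302), and Efna4 lower without 22-week BPH/2J replicate 2 (adjusted p = 0.0403).

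Of the Eph receptors, Ephb4, the venous receptor of ephrin-B2, was the most abundant. It read 460, 451 and 440 CPM in BPN/3J, 498, 606 and 565 in 4-week and 567, 551 and 502 in 22-week BPH/2J. Every BPH/2J library lay above every BPN/3J library, and the line difference at 22 weeks was 0.26 ± 0.08 (log2, adjusted p = 0.0286), with none called for age (-0.04 ± 0.08, adjusted p = 0.702). The line call was lost without any BPN/3J library or without 22-week BPH/2J replicate 1 or 2 (adjusted p = 0.0555 to 0.0954). Thus the arterial ligand and the venous receptor were each called higher in BPH/2J at 22 weeks, both by about 1.2-fold (1.16 and 1.20). In the same comparison 5 of the 8 defining endothelial markers were called higher and 0 lower. The groups did not overlap for all 8, but Flt1 lay lower in BPH/2J (log2 -0.25, adjusted p = 0.104, not called). The part of these marker differences in those of Efnb2 and Ephb4 was not tested.

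Epha2, a receptor of ephrin-A1, read 80.5, 93.4 and 102 CPM in BPN/3J, 139, 144 and 145 in 4-week and 111, 114 and 116 in 22-week BPH/2J. It was higher in BPH/2J at 22 weeks by 0.31 ± 0.08 (adjusted p = 0.0116) and fell with age by 0.33 ± 0.08 (adjusted p = 0.00735), so its groups were ordered as those of Sema6d and Plxnd1. Epha4, which binds ephrins of both classes, read 95.4, 114 and 102 CPM in BPN/3J, 82.9, 82.3 and 78.0 in 4-week and 99.8, 100 and 100 in 22-week BPH/2J, and rose with age by 0.31 ± 0.07 (adjusted p = 0.00454).

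Ephb1 read 47.4, 47.7 and 52.2 CPM in BPN/3J, 60.6, 77.0 and 72.6 in 4-week and 49.0, 59.0 and 58.9 in 22-week BPH/2J. It fell with age by 0.33 ± 0.10 (adjusted p = 0.0214), a call that was lost without 4-week replicate 2 or 3 or without 22-week BPH/2J replicate 1 (adjusted p = 0.0794 to 0.0978). Epha1 was lower in 22-week BPH/2J than in BPN/3J, at 2.90 ± 0.545 against 4.73 ± 0.0569 CPM (adjusted p = 0.0109). In GENCODE M21 it shares 236 exon bases with Zyx on the other strand. Epha7 (adjusted p = 0.0447, with overlapping groups) and Ephb6 (adjusted p = 0.0196) rose with age from 3.43 ± 0.880 to 6.20 ± 2.78 CPM and from 0.455 ± 0.0903 to 0.818 ± 0.102 CPM. Epha7 lost its call without any BPN/3J library, 4-week replicate 2 or 3, or 22-week BPH/2J replicate 1 or 3 (adjusted p = 0.0525 to 0.201). Ephb6 lost it without 4-week replicate 2 or 3 or 22-week BPH/2J replicate 1 or 3 (adjusted p = 0.0548 to 0.0783). Ephb2 and Ephb3, below 1 CPM in every group mean, were not called with all libraries. Ephb2 was called lower with age without 4-week replicate 1 (adjusted p = 0.0378) and lower in BPH/2J at 22 weeks without 4-week replicate 2 (adjusted p = 0.0464), and Ephb3 lower with age without 4-week replicate 2 (adjusted p = 0.0157).

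In the Slit and Robo families, the receptors gave the largest called changes with age of all guidance genes. Robo1 read 1.38, 0.764 and 2.10 CPM in BPN/3J, 11.03, 8.17 and 10.4 in 4-week BPH/2J and 1.39, 1.90 and 1.68 in 22-week BPH/2J. The 22-week groups overlapped each other, and all 4-week libraries lay far above them. Robo1 fell 5.94-fold with age (log2 -2.57 ± 0.27, adjusted p = 5.95e-05), and the line difference at 22 weeks, 0.23 ± 0.31, was not called (adjusted p = 0.589).

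Robo2, another Slit receptor and like Robo1 a gene of chromosome 16, changed in the opposite direction with age. It read 2.46, 3.13 and 4.07 CPM in BPN/3J, 3.36, 3.45 and 3.96 in 4-week and 6.16, 8.98 and 6.93 in 22-week BPH/2J. Only the 22-week BPH/2J libraries exceeded 5 CPM. The rise with age was 2.05-fold (adjusted p = 0.00228) and the line difference at 22 weeks 2.29-fold (adjusted p = 0.0012), and 4-week BPH/2J did not differ detectably from BPN/3J (log2 0.16 ± 0.21, adjusted p = 0.548). Robo3, known from axons that cross the midline, was lowest where Robo2 was highest, at 0.656 ± 0.102 CPM in 22-week BPH/2J against 1.48 ± 0.283 at 4 weeks (adjusted p = 0.00666) and 1.57 ± 0.465 in BPN/3J (adjusted p = 0.00521).

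Robo4, the endothelial Robo and a neighbour of Robo3 on chromosome 9, was far more abundant and was not called. It read 586, 653 and 654 CPM in BPN/3J, 499, 658 and 586 in 4-week and 546, 558 and 517 in 22-week BPH/2J, with adjusted p = 0.0943 between the lines, where the groups did not overlap, and 0.421 with age. Without 4-week replicate 1 Robo4 was called lower in BPH/2J at 22 weeks (log2 -0.22, adjusted p = 0.0232), as it was in a fit of the 22-week groups alone (adjusted p = 0.0198). Slit3, the most abundant Slit ligand, read 15.9, 15.6 and 19.6 CPM in BPN/3J, 8.52, 8.997 and 9.36 in 4-week and 14.3, 10.6 and 15.9 in 22-week BPH/2J, and rose with age by 0.60 ± 0.15 on the log2 scale (adjusted p = 0.00936). All 4-week libraries were below all others. Slit2 was lower in 22-week BPH/2J than in BPN/3J, at 1.17 ± 0.458 against 2.17 ± 0.351 CPM (adjusted p = 0.0463), a call lost without any BPN/3J library, 4-week replicate 3, or 22-week BPH/2J replicate 2 or 3 (adjusted p = 0.0535 to 0.145). Endocardial markers rose with age in 3 of 6 cases and fell in 1, the direction of Slit3, and of 11 fibroblast markers 4 rose and 4 fell; their part in it was not tested.

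Netrins are secreted ligands related to laminins. Ntn1, netrin-1, read 50.1, 55.7 and 61.0 CPM in BPN/3J, 42.6, 49.3 and 51.4 in 4-week and 87.3, 74.3 and 94.0 in 22-week BPH/2J. The 22-week BPH/2J libraries lay above all others. Netrin-1 rose 1.78-fold with age (log2 0.84 ± 0.11, adjusted p = 0.000177) and was 1.53-fold higher in BPH/2J than in BPN/3J at 22 weeks (adjusted p = 0.00123). Ntn4, a netrin of basement membranes, read 17.2, 16.4 and 16.9 CPM in BPN/3J, 11.6, 11.9 and 12.9 in 4-week and 18.7, 15.3 and 18.7 in 22-week BPH/2J, and rose with age by 0.53 ± 0.10 on the log2 scale (adjusted p = 0.00159) with no call between the lines (adjusted p = 0.625).

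Ntn3 had the largest fold between the lines of all guidance rows, at a low level. It read 0.135, 0.174 and 0.351 CPM in BPN/3J, which are 4, 5 and 10 counts, and 1.85, 2.06 and 1.48 CPM in 22-week BPH/2J, or 57, 64 and 46 counts. The 4-week libraries read 1.99, 1.72 and 1.66 CPM. The 22-week difference was 8.07-fold (log2 3.01 ± 0.32, adjusted p = 5.56e-05), and the age difference was 0.01 ± 0.23 (adjusted p = 0.988). Whether sequence differences between the lines changed how reads of this gene were assigned was not tested.

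Unc5b, the netrin receptor of endothelium, read 216, 199 and 203 CPM in BPN/3J, 442, 383 and 387 in 4-week and 334, 377 and 367 in 22-week BPH/2J. All 6 BPH/2J libraries lay above the 3 of BPN/3J. The line difference at 22 weeks was 0.80 ± 0.08 on the log2 scale (adjusted p = 3.12e-05), and the age difference, -0.17 ± 0.08, was not called (adjusted p = 0.0999). Of the other receptors of this kind, Unc5a and Unc5c stayed below 1 CPM in every library. Unc5a was called in the third comparison, at 0.673 ± 0.0520 CPM in 4-week BPH/2J against 0.208 ± 0.184 in BPN/3J (log2 1.68 ± 0.50, adjusted p = 0.016). This moved to 2.66 without BPN/3J replicate 2 and lost its call without BPN/3J replicate 1 or 3 (adjusted p = 0.0557 to 0.0629). Between the lines at 22 weeks the difference of Unc5a, 0.96 ± 0.54 on the log2 scale, was not called (adjusted p = 0.18), but without BPN/3J replicate 2 it was 1.94 and called (adjusted p = 0.0256). Unc50, which matched by symbol only and encodes a membrane protein unrelated to netrin signalling, read 44.3, 46.4 and 40.4 CPM in BPN/3J, 37.8, 39.6 and 38.9 in 4-week and 50.7, 45.4 and 48.8 in 22-week BPH/2J, a rise of 0.32 ± 0.07 with age (adjusted p = 0.00424).

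Ligands and receptors that are known partners were thus called together in some pairs and not in others. The pairs that follow are examples and not a full list. For Ntn1 and Unc5b, both were higher in BPH/2J at 22 weeks, and with age the ligand rose while the receptor was not called. For Sema6d and Plxna1, both fell with age, and between the lines the ligand alone was called. For Sema4d and Plxnb1, the ligand rose and the receptor fell with age, but each call was lost without some libraries. For Sema4c and Plxnb2, both fell with age, with the call on Sema4c lost without 22-week BPH/2J replicate 3. For Sema6a and Plxna2, the ligand was higher and the receptor lower in BPH/2J at 22 weeks. That call on Sema6a was lost without any of several libraries. For Efna1 and Epha2, both were higher in BPH/2J at 22 weeks, and with age the ligand rose and the receptor fell. For Slit3 and the Slit receptors Robo1 and Robo2, the ligand and Robo2 rose with age while Robo1 fell.

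The wider pathway was described with 46 partner genes, namely other co-receptors, regulators of receptor output and cytoskeletal effectors; 44 of these symbols were in the table, in 45 rows, and 42 rows were tested. Between the lines at 22 weeks 9 were higher and 8 lower in BPH/2J (40.5% called, against 38.0% of all tested genes). This count ranged from 9 to 23 called rows when a library was left out, with 23 without 4-week replicate 1, 9 without BPN/3J replicate 2 or without 22-week BPH/2J replicate 3 and 10 without 22-week BPH/2J replicate 1. With age 6 rose and 13 fell (45.2%, against 41.0%), and 12 rows were called without 22-week BPH/2J replicate 1. Against BPN/3J, 4-week BPH/2J had 14 higher and 6 lower (47.6%, against 53.1%).

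The partner genes with the smallest adjusted p over the 3 comparisons included relatives in the collapsin response mediator family. That smallest p came from 4-week BPH/2J against BPN/3J, where line and age both differ, for each of these genes. It ran from 2.75e-07 (Dpysl3) to 1.34e-05 (Crmp1). Crmp1, a collapsin response mediator that relays Sema3a signals in neurons, read 6.18, 4.86 and 4.74 CPM in BPN/3J, 20.5, 22.0 and 29.3 in 4-week and 3.11, 5.47 and 3.48 in 22-week BPH/2J. It fell 5.95-fold with age (adjusted p = 2.22e-05), as Robo1 did by 5.94-fold. Its relative Dpysl3 read 71.4, 71.4 and 74.1 CPM in BPN/3J, 196, 198 and 199 in 4-week and 81.8, 102 and 90.8 in 22-week BPH/2J, a fall of 1.11 ± 0.07 on the log2 scale (adjusted p = 1.11e-05). Both stood highest at 4 weeks with no overlap. Dpysl3 was also higher in BPH/2J than in BPN/3J at 22 weeks by 0.34 ± 0.07 (adjusted p = 0.00496). Crmp1 was not called there (adjusted p = 0.199). Dpysl2 of the same family was not called in any comparison (adjusted p = 0.325 between the lines and 0.615 with age), and Dpysl4 and Dpysl5 were not tested.

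Gipc1, an adaptor that binds plexin-D1 and neuropilin-1 inside the cell, read 27.01, 24.7 and 24.5 CPM in BPN/3J, 54.7, 50.1 and 53.9 in 4-week and 45.8, 49.2 and 47.3 in 22-week BPH/2J, and was higher in BPH/2J at 22 weeks by 0.90 ± 0.07 (adjusted p = 4.62e-06). Adam10, a protease that cuts ephrins among other proteins, read 255, 248 and 250 CPM in BPN/3J, 467, 450 and 434 in 4-week and 355, 408 and 376 in 22-week BPH/2J, and was higher by 0.60 ± 0.07 (adjusted p = 7.75e-05). Both were lowest in the normotensive line. Adam10 also fell with age, by 0.25 ± 0.07 (adjusted p = 0.0126), and Gipc1 was not called with age (adjusted p = 0.068). Enah and Vasp, related actin regulators downstream of Robo receptors, differed from each other. Enah read 49.9, 55.6 and 53.7 CPM in BPN/3J, 21.9, 25.5 and 23.7 in 4-week and 31.6, 28.0 and 27 in 22-week BPH/2J, lower in BPH/2J at 22 weeks by 0.88 ± 0.08 on the log2 scale (adjusted p = 2.57e-05). Vasp read 171, 160 and 150 CPM in BPN/3J, 270, 293 and 320 in 4-week and 174, 192 and 186 in 22-week BPH/2J, and fell with age by 0.68 ± 0.08 (adjusted p = 0.000102). With age Enah rose, by 0.28 ± 0.08 (adjusted p = 0.0191). Between the lines at 22 weeks Vasp was not called (0.20 ± 0.08, adjusted p = 0.0605).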

How the data were processed

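The deposited table gives the authors' raw read counts of 18094 genes in 9 libraries. It also holds CPM values, which equal each count over its column total per the file headers and values, gene lengths, and the authors' own log2 fold changes with p-values and false discovery rates from a model that no source used here describes. Tools listed by the submitters' processing notes, with no roles or settings, are TopHat2 2.0.13 and Bowtie2, featureCounts from Subread, CASAVA 1.8.2, edgeR and FastQC, with build mm9. Whether reads were counted by strand is not stated.

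From the counts, filterByExpr kept 15277 genes, libraries were scaled by TMM, and all 9 entered 1 quasi-likelihood fit with group as its term (edgeR 4.0.16, R 4.3.3). F tests were two-sided, p-values were adjusted by Benjamini-Hochberg across the 15277 genes, and 0.05 was the threshold. SE is the absolute log2 difference over the square root of F. CPM carry the TMM scaling. The pipeline was tested on simulated data. Genes, lists and tests were chosen with earlier results of these data known. Values of every library are given for members called without overlap and with at least 5 CPM in the highest group. They are also given for the 6 highest by RPKM and for 8 partner genes. These 8 are the neuropilins and the 6 with the smallest adjusted p over the 3 comparisons. Equal replicate numbers showed residual correlations of -0.203 to 0.103, with 1 of 9 pairs over 0.1, and were not treated as pairs. Alternatives were median-of-ratios scaling, other filters, DESeq2 1.42.0, fits on the compared groups, a replicate block, a threshold of 0.01 and leaving out each library. Figures used matplotlib 3.10.9.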

Additional observations from a re-analysis of the deposited data

How the results depend on the processing

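At an adjusted p threshold of 0.01, 15 guidance rows were called between the lines at 22 weeks and 16 with age, with 3432 and 3871 genes over the whole table and 7 and 11 partner rows. Leaving out a library gave 18 to 28 guidance rows between the lines, 18 to 29 with age and 29 to 34 for 4-week BPH/2J against BPN/3J. The whole table gave 4362 to 7117, 4606 to 7383 and 6968 to 8682 genes, and partner rows 9 to 23, 12 to 20 and 17 to 23. Of the called guidance rows, 17 of 25, 17 of 26 and 28 of 31 stayed called under every library left out. Over all alternatives run, no called guidance row changed direction. With the replicate number as a block, 24, 23 and 33 guidance rows were called, against 25, 26 and 31 without it, and no count over the lists or the table moved by over 1.5 times. Under the block Sema4a (adjusted p = 0.0571) and Sema6a (0.0656) between the lines and Sema3a (0.0715), Sema4f (0.0751) and Epha7 (0.0591) with age were no longer called, while Sema4c between the lines (0.042) and Sema4g (0.0437) and Slit2 (0.0193) in the third comparison were newly called, and 1 of 9 libraries correlated best with its own number. DESeq2 did not call Ephb6 (adjusted p = 0.0581) or Sema4f (0.0968) with age, and newly called Sema7a between the lines (0.0315), Sema4a with age (0.0386) and Epha7 (0.0293) and Unc50 (0.0496) in the third comparison. Unc50 was also called there with median-of-ratios scaling (0.0464) and a filter of 1 CPM in 3 libraries (0.0318), and without a low-count filter Sema4f had 0.0537 with age. Fits on only the compared groups did not call Epha7 with age (0.074), nor Sema3c in the third comparison (0.0656), and newly called Robo4 (0.0198), Sema4c (0.0243) and Sema7a (0.0316) between the lines and Epha7 (0.0212) in the third comparison. The cause of these changes was not tested. Depth limits the rows below 1 CPM, where 3 counts are worth 0.0911 to 0.104 CPM.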
